A study of Mus musculus with 12 samples.

Results

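Most of the genes described here encode parts of motile cilia. These beating hair-like organelles stand on the surface of ependymal cells that faces the brain ventricles. All of the genes were chosen by a rule on gene names, which was set with earlier results of these data known. Every gene whose symbol begins with Cfap (cilia and flagella associated protein), Rsph (radial spoke head) or Dnah (axonemal dynein heavy chain) followed by a digit was taken, together with Ak7, Ccdc153, Dynlrb2, Pifo, Tmem212, Mia and Rarres2, genes used as markers of ependymal cells. This gave 54 genes of 19505 measured, with 30 Cfap, 10 Dnah and 7 Rsph genes and the 7 ependymal markers, each measured by 1 transcript cluster. The 54 are called cilia genes below for short, although Mia and Rarres2 encode secreted proteins. No gene carries a symbol of the Dnai form in this annotation, where the axonemal intermediate chains are called Dnaic1 and Dnaic2. Foxj1, the transcription factor that switches on motile cilia genes, and Dnah3, Dnah7b, Dnah7c, Dnah12, Dnah14, Cfap46, Cfap47, Cfap54 and Cfap99 also fit the choice and were not analysed here.

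Expression was measured on microarrays in cells that the study labels as astrocytes of brain white matter. Papain was used to dissociate the tissue, a blocking reagent was added against capture through Fc receptors, and the beads captured cells through GLAST, the product of the glutamate transporter gene Slc1a3. All mice were C57BL/6 and entered the study at 8 to 12 weeks of age. Cuprizone, a copper chelator that kills oligodendrocytes, was given at 0.2% (w/w) in powdered food. The 4 groups of 3 biological replicates were wild-type mice after 0, 3 and 12 weeks of this diet and mice deficient in GnT-IX after 12 weeks. GnT-IX, encoded by Mgat5b, is a brain glycosyltransferase that branches O-mannosyl glycans; how the deficient line was made is not described in the labels. The wild-type group at 0 weeks is the untreated group. No GnT-IX-deficient mice at 0 or 3 weeks and no untreated mice of the later ages were analysed here, so weeks of diet and age cannot be told apart, nor can an effect of genotype that was present before the diet be told from one that came with it.

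A motile cilium is built around the axoneme, a ring of doublet microtubules around a central pair. Outer and inner dynein arms, whose motors are the Dnah heavy chains, slide neighbouring doublets past each other. Radial spokes, with heads made of Rsph proteins, reach from the doublets to the central pair and take part in shaping the beat, while many Cfap proteins line the inside of the doublets, tether the arms or belong to the central pair. In the brain, ependymal cells carry tufts of such cilia that move cerebrospinal fluid, and the neighbouring choroid plexus epithelium, which secretes that fluid, is ciliated as well. Astrocytes carry a single primary cilium without dynein arms or spokes.

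Values are log2 signals, so that a difference of 1 is a doubling. A gene was called where its limma p-value, adjusted by Benjamini-Hochberg over all 19505 genes, was below 0.05. Array medians lay between 5.38 and 5.45, and arrays within a group correlated across genes with r of 0.975 to 0.985. Mgat5b read 5.57 to 6.49 in the 9 wild-type arrays and 3.70, 4.19 and 4.06 in the GnT-IX-deficient arrays, a fall of 1.82 (SE 0.21, limma adjusted p = 0.00159). Slc1a3 itself was 8.35 ± 0.44 (SD, n = 3) at 0 weeks and fell by 1.35 at 3 weeks (limma adjusted p = 0.0150). The 14 astrocyte markers averaged 8.77 to 9.96 per wild-type array, and the microglial markers 5.05 to 9.17. Choroid plexus markers averaged 4.79 to 5.96 in the wild-type arrays and 8.06, 7.14 and 5.89 in GnT-IX-deficient replicates 1, 2 and 3, so these 3 arrays stand apart from each other and 2 of them from the rest. With 3 arrays per group, the array number sets the precision of all values. In such pooled cells, fewer cells of a type and less RNA per cell cannot be told apart.

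The signals of the cilia genes spanned most of the range of the arrays. Averaged over the 12 arrays, 30 of the 54 lay above the median gene (5.50) and 10 lay at or above the 75th percentile of all genes. The 6 genes Cfap45, Cfap58, Cfap97d1, Rsph14, Dnah8 and Dnah17 lay below 3.85, the highest lower quartile of any array. The summary method can compress differences at such low signals, which was not measured here. Dnah8, an outer arm heavy chain used mainly in sperm, read 2.39 to 3.16, and Cfap97d1, needed for the mouse sperm tail, read 2.67 to 3.30. Within groups, the standard error of a difference was 0.23 for the median member, with a range of 0.15 to 0.40. Signals of different genes also depend on their probes, so a gene's rank by signal does not give its amount of transcript.

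Taken as an average over all 54 genes, the wild-type arrays ran from 5.41 to 5.73, beside 5.51 to 5.53 for all genes tested. The mean over the 54 was 5.41, 5.73 and 5.68 at 0 weeks, 5.49, 5.62 and 5.71 at 3 weeks, and 5.72, 5.43 and 5.43 at 12 weeks. The GnT-IX-deficient arrays gave 5.69, 6.12 and 5.95, so replicates 2 and 3 lay above all wild-type arrays and replicate 1 lay within their range. For the 7 ependymal markers alone, the wild-type means ran from 6.62 to 7.50. The GnT-IX-deficient arrays gave 7.38, 8.60 and 8.09 there, with replicate 1 again within the wild-type range. GnT-IX-deficient replicate 2 was the highest of the 12 arrays for 25 of the 54 genes, against 10.2% of all genes. Replicate 3 was the highest for 5, against 9.64% of all genes, and replicate 1 for 3, against 7.89%. Wild-type replicate 1 at 0 weeks was the lowest array for 13 of the 54 genes, against 10.7% of all genes.

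**Figure D1:**
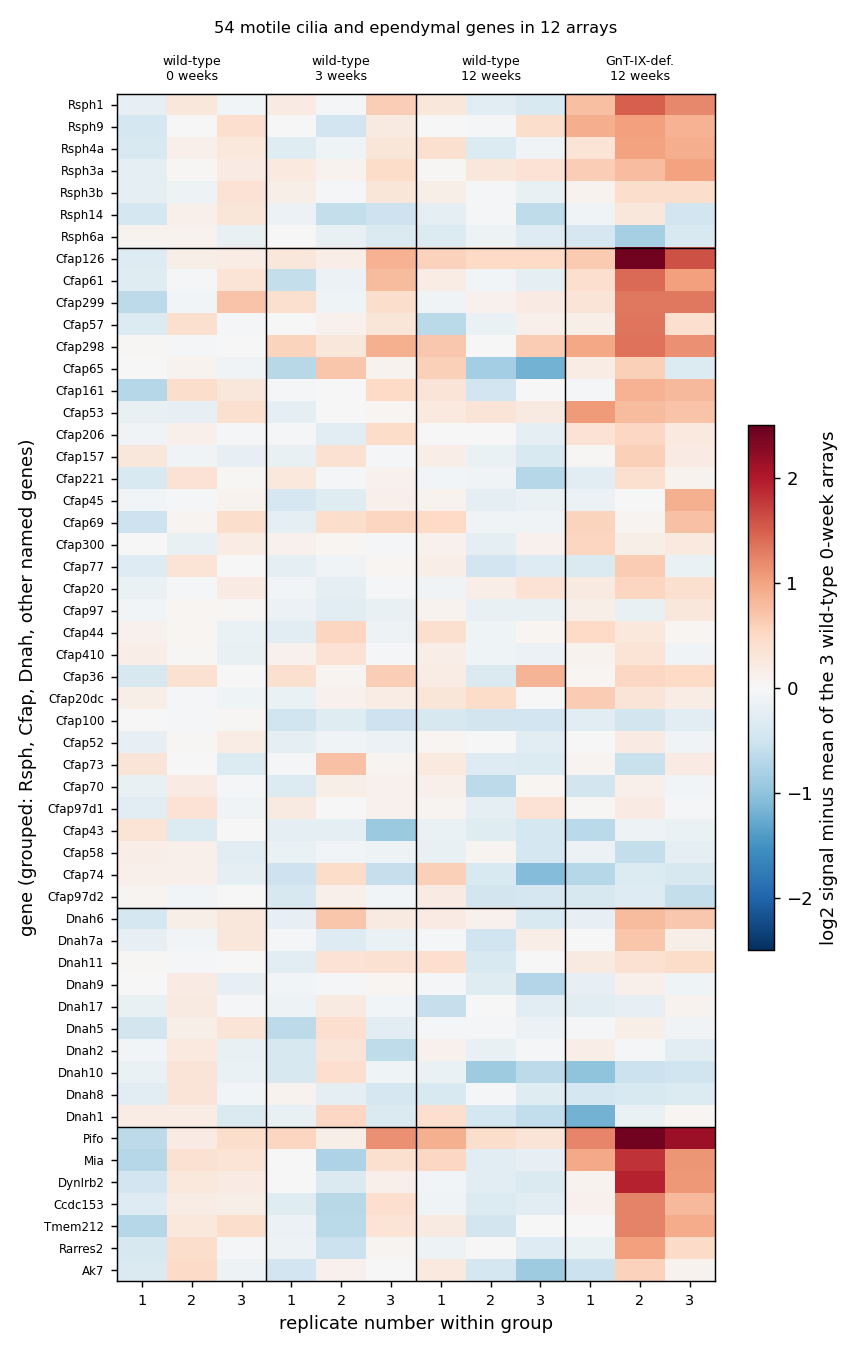
Each row is 1 of the 54 cilia genes, grouped by family, and each column 1 of the 12 arrays. Colour gives the log2 signal minus the gene's mean over the untreated wild-type arrays. GnT-IX-deficient replicate 2 was the highest array for 25 of the 54 genes, against 10.2% of all genes.

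In wild-type mice the cilia genes showed no called difference at any time on the diet. After 3 weeks against 0 weeks none of the 54 was called, where 632 genes or 3.24% of all were, and 2 of the 54 had an unadjusted limma p below 0.05, against 16.1% of all genes. After 12 weeks against 0 weeks the count was 0 of 54 against 2.64% of all genes, with 2 below an unadjusted 0.05 against 15.1%. Between 12 and 3 weeks it was 0 of 54 against 0.082%, with 1 below an unadjusted 0.05 against 11.4%. The median difference over the 54 genes was -0.03 at 3 weeks and -0.09 at 12 weeks, beside -0.02 and -0.01 over all genes. At 12 weeks 15 of the 54 differences from 0 weeks were above 0, which is 27.8% against 48.2% of all genes, and the medians by family were -0.08 for Cfap, -0.16 for Dnah, -0.03 for Rsph and -0.15 for the ependymal markers. Both shifts of the 54 genes are smaller than the pooled SD of their mean between arrays of a group, which was 0.17.

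A few Cfap genes had wild-type groups that did not overlap. Cfap100, which in Chlamydomonas belongs to a complex that modifies inner dynein arms, read 6.36, 6.31 and 6.37 at 0 weeks, 5.85, 6.05 and 5.83 at 3 weeks, and 5.94, 5.88 and 5.87 at 12 weeks. All 6 arrays on the diet lay below the 3 untreated arrays, with differences of -0.44 at 3 weeks (limma adjusted p = 0.137) and -0.45 at 12 weeks (adjusted p = 0.141). Cfap97 lay lower at 3 weeks without overlap as well, with 6.00, 6.10 and 6.08 against 5.92, 5.80 and 5.87. In the other direction, Cfap298, a factor needed to assemble dynein arms, read 6.79, 6.72 and 6.77 at 0 weeks and 7.31, 7.04 and 7.64 at 3 weeks, a difference of 0.57 (limma adjusted p = 0.174). Cfap126, known as Flattop and needed for positioning basal bodies, read 4.78, 5.24 and 5.28 at 0 weeks and 5.68, 5.59 and 5.60 at 12 weeks. Between 3 and 12 weeks, Cfap53 lay higher and Cfap221 lower without overlap, Cfap221 by -0.42 (limma adjusted p = 0.530). At 3 against 0 weeks, 1 of the 54 lay wholly above and 2 wholly below, where 10.8% and 10.5% of all genes did. The 12-week group gave 1 and 1 against 0 weeks, beside 10.8% and 9.95% of all genes, and 1 and 1 against 3 weeks, beside 7.83% and 8.1%.

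In the comparison of genotypes at 12 weeks of diet, most cilia genes had a higher signal in the GnT-IX-deficient arrays, with none called. None of the 54 passed the threshold in limma, where 5 genes or 0.0256% of all did, and 17 of the 54 or 31.5% had an unadjusted p below 0.05, against 6.99% of all genes. The difference was above 0 for 45 of 54 genes, or 83.3%, against 47.6% of all genes, and its median was 0.34 against -0.01. A difference of at least 0.5 was found for 18 genes or 33.3%, against 3.05% of all genes, and of at least 1 for 5 genes or 9.26%, against 0.461%. The 3 GnT-IX-deficient arrays lay above the 3 wild-type arrays without overlap for 15 genes or 27.8%, against 5.27% of all genes, and below them for 1 gene, Rsph6a, or 1.85%, against 5.57%. In 7 genes, Cfap298, Cfap53, Mia, Pifo, Rsph1, Rsph3a and Rsph9, the GnT-IX-deficient arrays lay above all 9 wild-type arrays, which is 13% against 1.23% of all genes, and Rsph6a alone lay below all 9, where 0.989% of all genes did. The genes share their arrays and were chosen with earlier results of these arrays known, so these shares describe the arrays and are no independent evidence.

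**Figure D2:**
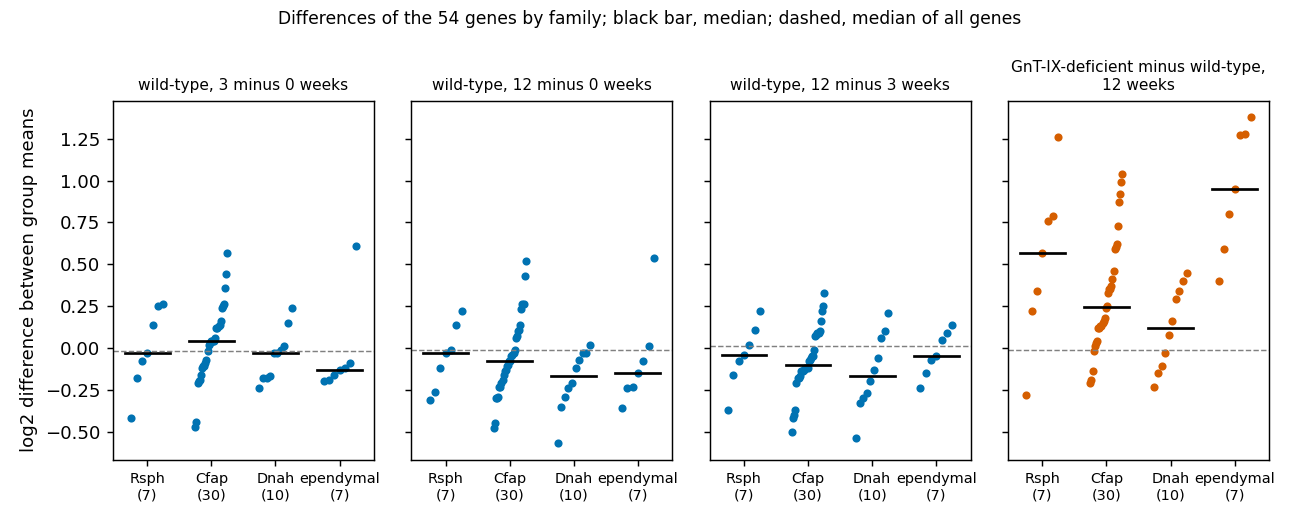
Differences between GnT-IX-deficient and wild-type arrays at 12 weeks, and between the wild-type groups, in log2 signal, for each gene by family, with black bars at family medians and a dashed line at the median of all genes. In the comparison of genotypes the family medians were 0.95 for the 7 ependymal markers, 0.57 for Rsph, 0.24 for Cfap and 0.12 for Dnah.

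The families differed in how far they lay from 0. The difference was above 0 for 7 of 7 ependymal markers, 6 of 7 Rsph genes, 26 of 30 Cfap genes and 6 of 10 Dnah genes, with medians of 0.95, 0.57, 0.24 and 0.12. These families also differ in signal. By mean signal over the 12 arrays, the 16 members below 5 had a median difference of 0.06, the 15 between 5 and 6 one of 0.29, the 13 between 6 and 7 one of 0.40 and the 10 at or above 7 one of 0.74, while all genes in the same ranges had medians between -0.04 and 0.01. The part of signal strength in the order of the families was not tested.

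Among the ependymal markers, Pifo lay farthest from the wild-type arrays. Pifo, called Pitchfork, is found at the base of cilia and has a part in their disassembly. It read 4.91, 5.76 and 6.00 at 0 weeks, 6.09, 5.71 and 6.70 at 3 weeks, 6.44, 5.99 and 5.87 at 12 weeks and 6.78, 7.96 and 7.70 in the GnT-IX-deficient arrays. All 3 GnT-IX-deficient arrays lay above all 9 wild-type arrays, replicate 1 narrowly. The group means at 12 weeks were 6.10 ± 0.30 and 7.48 ± 0.62 (SD, n = 3 each), a difference of 1.38 (SE 0.33) or 2.60-fold, with a limma adjusted p of 0.303. In wild-type mice Pifo also differed by 0.61 at 3 weeks (limma adjusted p = 0.401) and by 0.54 at 12 weeks (adjusted p = 0.494), where the groups overlapped. Leaving out 1 array at a time gave 0.29 to 0.84 at 3 weeks and 0.22 to 0.77 at 12 weeks.

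Mia, which encodes a small secreted protein first described in melanoma and cartilage, had the same order of the 3 GnT-IX-deficient arrays. Unlike Pifo, Mia differed little in wild-type mice, by -0.13 at 3 weeks and 0.01 at 12 weeks against 0 weeks. Its signal was 7.29, 8.37 and 8.33 at 0 weeks, 7.98, 7.22 and 8.39 at 3 weeks, 8.51, 7.71 and 7.79 at 12 weeks and 8.95, 9.81 and 9.10 without GnT-IX. The GnT-IX-deficient arrays lay above all wild-type arrays, which themselves varied by more than 1 unit within the untreated and the 3-week groups. The difference at 12 weeks was 1.28 (SE 0.34) or 2.43-fold, with a limma adjusted p of 0.400.

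Dynlrb2, a roadblock-type dynein light chain enriched in ciliated cells, read 6.04, 6.79 and 6.73 at 0 weeks, 6.51, 6.15 and 6.64 at 3 weeks, 6.45, 6.23 and 6.16 at 12 weeks and 6.61, 8.44 and 7.60 in the GnT-IX-deficient arrays. Replicate 2 lay far above every wild-type array, whereas replicate 1 lay within the untreated range. The means of 6.28 ± 0.15 and 7.55 ± 0.92 (SD, n = 3 each) differed by 1.27 (SE 0.34), with a limma adjusted p of 0.399. Without GnT-IX-deficient replicate 1 the difference was 1.74 and its limma adjusted p 0.042, and over all alternatives it ran from 0.82 to 1.74.

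The other ependymal markers differed by less. Ccdc153, a coiled-coil protein, read 7.59, 7.34 and 7.40 in the wild-type and 7.78, 8.92 and 8.49 in the GnT-IX-deficient arrays at 12 weeks, without overlap (0.95, SE 0.29, limma adjusted p = 0.471). Earlier wild-type arrays reached 8.10, above GnT-IX-deficient replicate 1. Tmem212, a transmembrane protein, read 8.16, 7.49 and 7.94 against 7.95, 9.18 and 8.87 (0.80, SE 0.35, limma adjusted p = 0.684). Rarres2, which encodes the secreted chemoattractant chemerin, read 7.61, 7.73 and 7.42 against 7.57, 8.76 and 8.21 (0.59, SE 0.28, limma adjusted p = 0.715). Ak7, an adenylate kinase of motile cilia, read 6.82, 6.14 and 5.68 against 6.04, 7.14 and 6.66 (0.40, SE 0.32, limma adjusted p = 0.823). In these last 3 genes the groups overlapped: GnT-IX-deficient replicate 1 lay among the wild-type values in each, and replicate 3 did as well in Ak7. Leaving out 1 array at a time gave 0.13 (without wild-type replicate 3) to 0.70 (without wild-type replicate 1) for Ak7, where GnT-IX-deficient replicates 1 and 2 also moved it, to 0.69 and 0.14, and 0.30 (without GnT-IX-deficient replicate 2) to 0.90 (without replicate 1) for Rarres2.

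**Figure D3:**
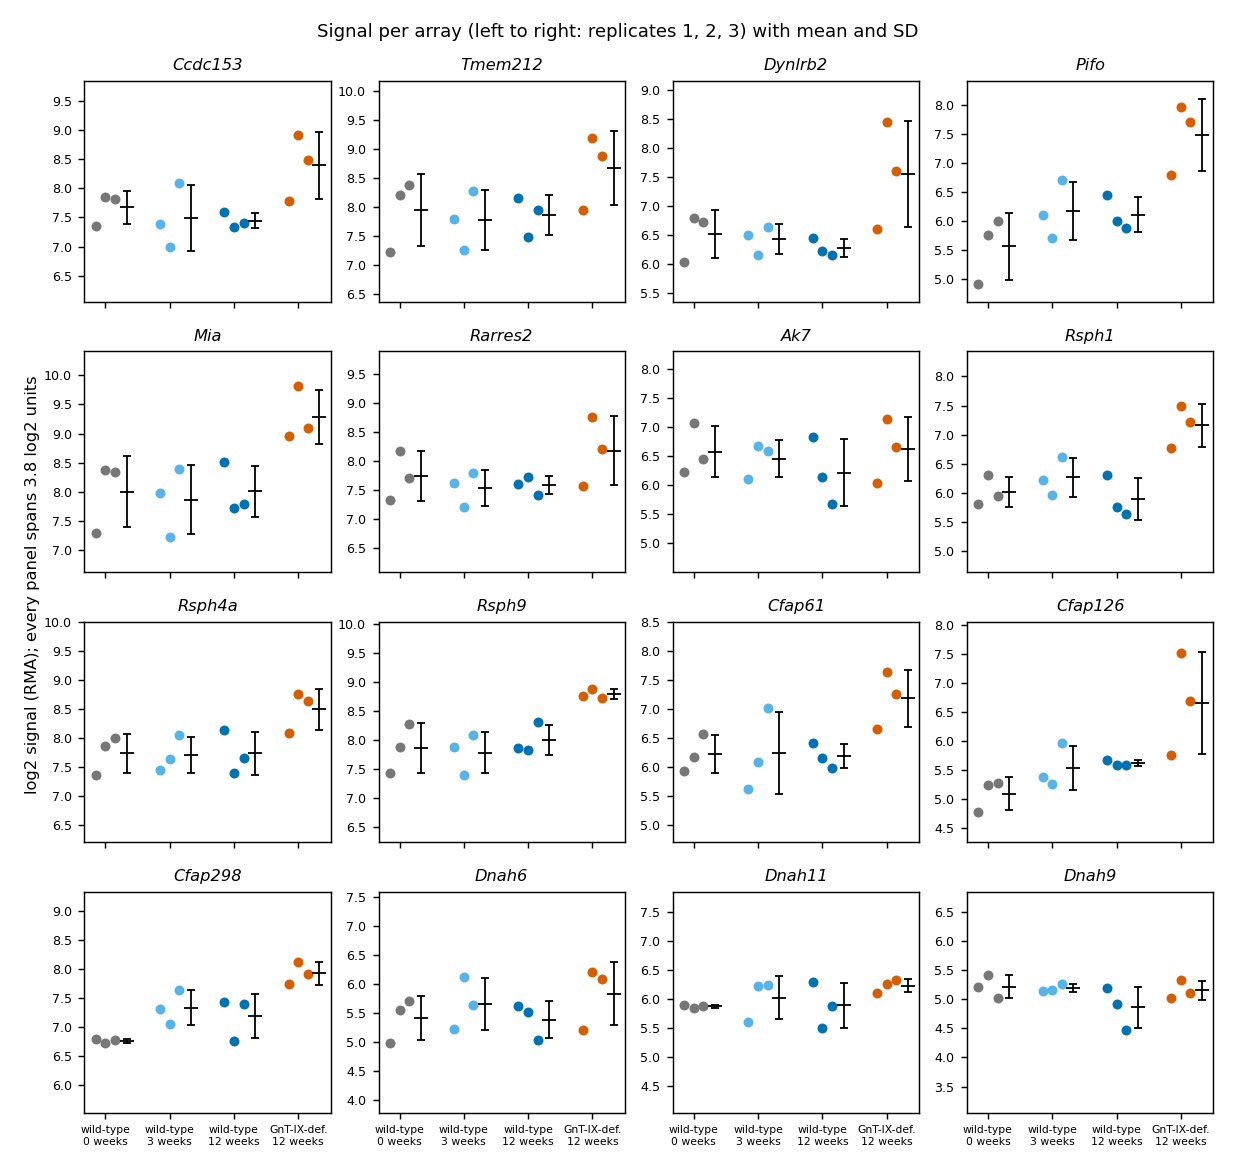
Log2 signal of members in each of the 12 arrays, 1 panel per gene, with points for arrays, a short bar for each group mean and whiskers for its SD. Rsph1 and Pifo lay above all 9 wild-type arrays in all 3 GnT-IX-deficient arrays, while in Dynlrb2 replicate 1 lay among the wild-type arrays.

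The radial spoke genes gave the smallest p-value of the 54. Rsph1, a protein of the spoke head, read 5.80, 6.30 and 5.94 at 0 weeks, 6.21, 5.96 and 6.62 at 3 weeks, 6.30, 5.75 and 5.63 at 12 weeks and 6.76, 7.50 and 7.21 in the GnT-IX-deficient arrays. All 3 of the latter lay above all 9 wild-type arrays. The means at 12 weeks were 5.89 ± 0.36 and 7.16 ± 0.37 (SD, n = 3 each), and the difference of 1.26 (SE 0.24), or 2.40-fold, had a limma p of 9.8e-05 before and 0.146 after adjustment. Over the alternatives the adjusted p ran from 0.077 to 0.6.

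Further spoke genes lay higher by smaller amounts. Rsph9, another head protein, read 7.86, 7.83 and 8.30 in the wild-type and 8.76, 8.88 and 8.72 in the GnT-IX-deficient arrays at 12 weeks, and no earlier wild-type array exceeded 8.30. Its 3 GnT-IX-deficient arrays lay close together (8.79 ± 0.08, SD, n = 3), and the difference was 0.79 (SE 0.23, limma adjusted p = 0.453). Rsph3a, of the family of spoke stalk proteins that bind protein kinase A, read 7.12, 7.38 and 7.45 against 7.70, 7.87 and 8.09 (0.57, SE 0.18, limma adjusted p = 0.491). Rsph4a, a head protein, read 8.14, 7.40 and 7.66 against 8.09, 8.75 and 8.64, with overlap through replicate 1 (0.76, SE 0.25, limma adjusted p = 0.515). The related Rsph3b, named after its value was seen, differed by 0.34 (limma adjusted p = 0.760).

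The remaining spoke genes had smaller differences or one of the other sign. Rsph6a, a spoke head protein of the mouse sperm tail, read 4.94, 5.14 and 4.95 against 4.85, 4.44 and 4.89, the only member below the wild-type arrays without overlap (-0.28, SE 0.18, limma adjusted p = 0.778). Rsph14, one of the dim members, differed by 0.22. Leaving out GnT-IX-deficient replicate 2 brought these differences to -0.14 and 0.03. The 12 male germ cell genes measured as a check averaged 3.20 to 3.41 in the wild-type arrays and had a median difference of 0.01.

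Among the 30 Cfap genes, 26 differences (86.7%) were above 0, against 47.6% of all genes. For 8 genes (26.7%) the GnT-IX-deficient arrays lay above the wild-type ones without overlap, against 5.27%. An unadjusted limma p below 0.05 was found for 7 (23.3%), against 6.99%. Cfap126 (Flattop) read 5.68, 5.59 and 5.60 in wild-type and 5.76, 7.52 and 6.70 in GnT-IX-deficient arrays at 12 weeks, so that nearly the whole difference of 1.04 (SE 0.33, limma adjusted p = 0.493) came from replicates 2 and 3; it was 0.61 without replicate 2. Cfap61, a protein at the base of the radial spokes, read 6.41, 6.16 and 5.99 against 6.65, 7.64 and 7.25 (0.99, SE 0.31, limma adjusted p = 0.495), while a wild-type array at 3 weeks reached 7.02. Cfap298 read 7.43, 6.75 and 7.39 against 7.73, 8.12 and 7.91, above all wild-type arrays (0.73, SE 0.21, limma adjusted p = 0.442). Cfap53, a protein of the doublet lumen needed for left-right patterning, had low signals, with 3.84, 3.93 and 3.82 against 4.66, 4.39 and 4.31 and a highest wild-type value of 4.01 (0.59, SE 0.19, limma adjusted p = 0.499). Unlike most members, Cfap53 was highest in replicate 1.

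The remaining Cfap genes without overlap, named after their values were seen, were Cfap299, Cfap57, Cfap206 and Cfap300, with differences of 0.92, 0.87, 0.46 and 0.33. Some members with high signal differed little. Cfap20, a protein of the inner junction of the doublets, read 8.49, 8.74 and 8.93 against 8.81, 9.11 and 8.97, a difference of 0.24. Cfap65, which is required for the sperm tail, had the largest standard error of the 54, with 7.78, 6.34 and 5.99 against 7.37, 7.78 and 6.83, and its difference of 0.62 (SE 0.40, limma adjusted p = 0.784) ran from 0.27 without wild-type replicate 3 to 1.16 without wild-type replicate 1, and was 0.40 without GnT-IX-deficient replicate 2. Cfap100 and Cfap97 overlapped between the genotypes. In wild-type mice Cfap100 had lain lower without overlap at 3 and 12 weeks, Cfap97 only at 3 weeks.

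Of the families, the dynein heavy chains lay nearest to the wild-type arrays by median difference (0.12). None of the 10 had an unadjusted limma p below 0.05 between genotypes, against 6.99% of all genes. None was without overlap, against 5.27% of all genes higher and 5.57% lower. With only 10 genes, counts of 0 are near those shares. The differences ran from -0.23 (Dnah1, named as the lowest) to 0.45 (Dnah6). Dnah6, an inner arm heavy chain, read 5.62, 5.52 and 5.03 against 5.21, 6.21 and 6.09 (SE 0.29, limma adjusted p = 0.785). Dnah7a, also of the inner arms, read 6.02, 5.56 and 6.22 against 6.06, 6.74 and 6.19 (0.40, limma adjusted p = 0.760). Of the outer arm chains, Dnah11 read 6.28, 5.49 and 5.88 against 6.10, 6.25 and 6.32 (0.34, limma adjusted p = 0.779) and Dnah9 5.19, 4.92 and 4.48 against 5.02, 5.34 and 5.11 (0.29, limma adjusted p = 0.785). Leaving out 1 array gave ranges of 0.26 to 0.76 for Dnah6, 0.19 to 0.54 for Dnah7a, 0.14 to 0.54 for Dnah11 and 0.10 to 0.46 for Dnah9. Whether the heavy chains differed from the spoke genes was not tested. The intermediate chains Dnaic1 and Dnaic2, outside the choice by symbol, differed by 0.55 (limma adjusted p = 0.688) and 0.50 (adjusted p = 0.747), and Wdr63 and Wdr78, intermediate chains of inner arms that were named after their values were seen, by 1.23 (adjusted p = 0.178) and 0.62 (adjusted p = 0.412).

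The 3 GnT-IX-deficient arrays did not contribute equally. Against the mean of the wild-type arrays at 12 weeks, the median member stood at 0.15 in replicate 1, 0.47 in replicate 2 and 0.34 in replicate 3, while the median of all genes stood between -0.02 and -0.01 in each. For the 7 ependymal markers these medians were 0.33, 1.48 and 1.05, and for the 7 Rsph genes 0.36, 0.60 and 0.72. Replicate 2 was the highest of the 3 arrays for 7 of 7 ependymal markers and for 36 of the 54 members, or 66.7%, against 31.4% of all genes. Leaving out replicate 1, 2 or 3 gave a median over the 54 genes of 0.42, 0.25 and 0.32, and leaving out wild-type replicate 1, 2 or 3 gave 0.45, 0.29 and 0.27.

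Choroid plexus markers also lay higher in the GnT-IX-deficient arrays, but in another order of arrays. All 18 measured lay above 0, with a median of 1.72 and none called in limma. Without GnT-IX-deficient replicate 3, however, 10 of the 18 were called and the median was 2.32. Without wild-type replicate 1 there was 1 call. Over all genes, leaving out 1 array at a time gave 3 to 49 calls between genotypes, beside 5 or 0.0256% with all arrays. Ttr, Folr1 and Kl are given as examples chosen after their values were seen. Ttr, the thyroxine carrier made in bulk by choroid plexus epithelium, read 7.40, 9.92 and 4.99 against 12.47, 12.09 and 9.56, Folr1, a folate receptor, 5.94, 5.66 and 5.81 against 9.59, 8.79 and 6.63, and Kl (Klotho) 2.93, 3.31 and 2.71 against 7.82, 6.01 and 3.05. Replicate 1 was the highest of the GnT-IX-deficient arrays for 17 of the 18 choroid plexus markers but for none of the 7 ependymal markers or 7 Rsph genes described above, for 4 of 16 other ependymal markers and for 7 of the 54 members. Without replicate 1 the choroid plexus median was 1.16 and the median of the 54 cilia genes 0.42. How far choroid plexus or ependymal cells among the captured cells account for the differences of the cilia genes was not tested. The values are log2 summaries with no zeros, so no marker can be said to be absent.

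**Figure D4:**
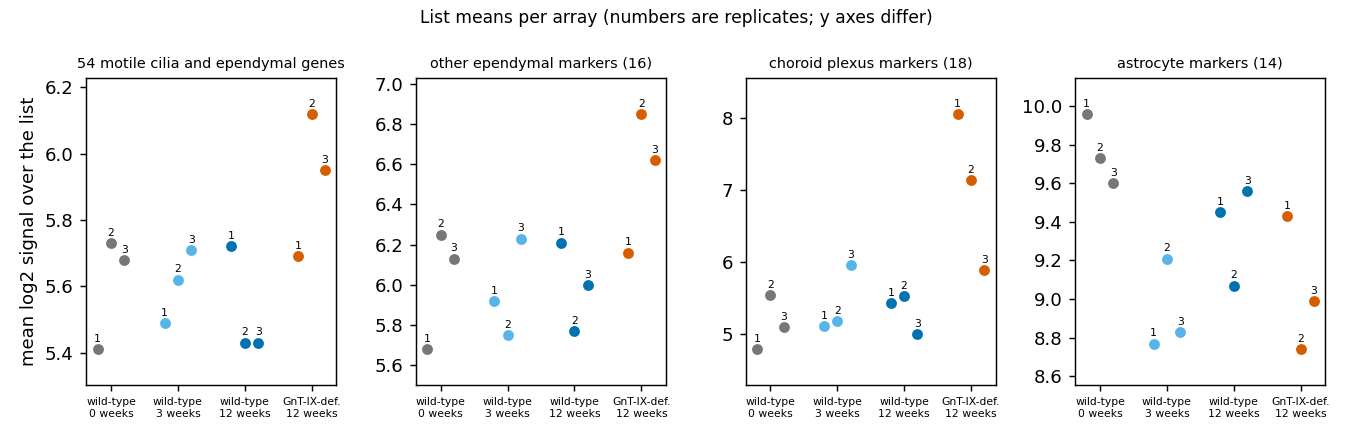
Mean log2 signal per array of the 54 cilia genes, other ependymal, choroid plexus and astrocyte markers, with 1 numbered point per array in each of the 4 groups and a separate y axis per panel. Choroid plexus markers were highest in GnT-IX-deficient replicate 1 (8.06), while the cilia genes were highest in replicate 2 (6.12).

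Markers of other cells behaved as follows in the comparison of genotypes. Of the 16 other ependymal markers measured, 14 lay above 0, with a median of 0.54 over the list. Enkur (1.06) and Ccdc113 (1.08), named for this reason, are counted again in the lists by function below. Cd24a, a surface protein gene, differed by 0.89, while Prom1, another, was the lowest of the list at -0.29 (both named after their values were seen). Replicate 2 was the highest GnT-IX-deficient array for 10 of them. The 14 astrocyte markers all lay below 0, with a median of -0.28, and so did the 13 microglial markers, with a median of -0.56. Oligodendrocyte markers had a median of 0.25, with 7 of 10 above 0. None of these was called in limma with all arrays. In wild-type mice, by contrast, 10 and 11 of the 13 microglial markers were called higher at 3 and 12 weeks against 0 weeks. Of the 14 astrocyte markers, 8 were called lower and 1 higher at 3 weeks, and 1 lower and 1 higher at 12 weeks. Among the 16 other ependymal markers, 1 was called lower at 3 weeks. None of the 54 cilia genes was called in the same arrays, where 3.24% and 2.64% of all genes were.

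Other genes of motile cilia, from lists set up by function, lay on the same side in the comparison of genotypes, again with none called. Nexin-dynein regulatory complex and central pair genes had a median of 0.44 with 15 of 17 above 0, axonemal light chains, tektins and microtubule inner proteins 0.39 with 15 of 19, outer arm docking genes 0.38 with 3 of 3, and dynein arm preassembly factors 0.26 with 11 of 13. Genes of intraflagellar transport, which primary cilia use as well, had a median of 0.10 with 16 of 23 above 0, and regulators of ciliogenesis one of 0.06 with 9 of 16. Examples named after their values were seen are Tekt1, a tektin of the doublet lumen, with 6.06, 4.94 and 4.67 against 5.81, 7.09 and 6.79 (1.34, limma adjusted p = 0.328), and Nme5, a spoke protein, with 8.17, 7.21 and 7.90 against 8.66, 9.12 and 8.59 (1.03, limma adjusted p = 0.291). Efcab1, of the outer arm docking complex, read 4.40, 3.93 and 3.96 against 4.78, 5.52 and 5.13 (1.05, limma adjusted p = 0.178). Wild-type Tekt1 values overlapped with the GnT-IX-deficient ones, whereas those of Nme5 and Efcab1 did not. The sole calls in these lists came from wild-type mice, where the transcription factors Rfx3 and Rfx4 fell at 3 against 0 weeks by 0.72 (limma adjusted p = 0.0182) and by 1.04 (adjusted p = 0.0119). Both are also expressed outside ciliated cells, Rfx4 in astrocytes.

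**Figure D5:**
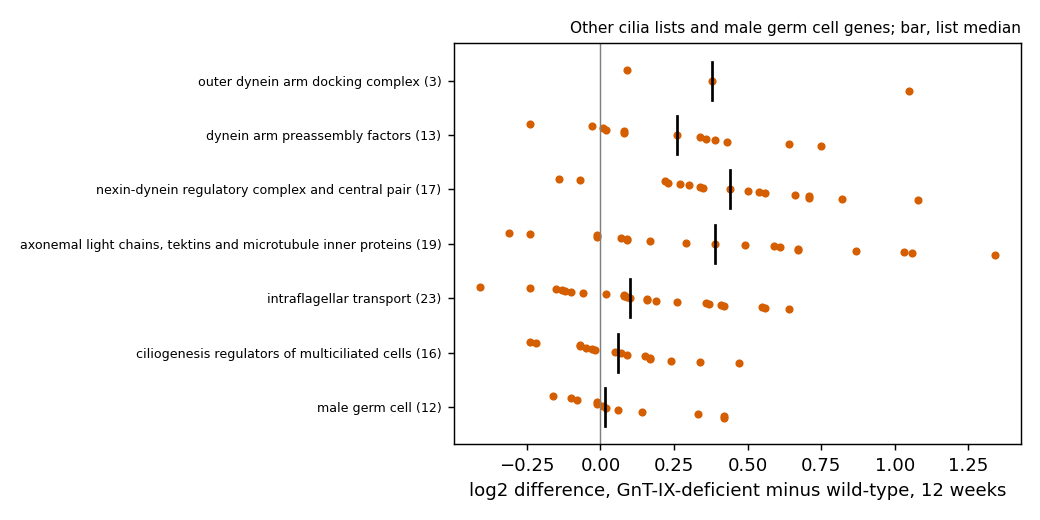
Differences in log2 signal between GnT-IX-deficient and wild-type arrays at 12 weeks for genes of other motile cilia lists and for male germ cell genes, 1 point per gene with the list median as a bar. Medians ran from 0.06 for ciliogenesis regulators to 0.44 for the nexin-dynein regulatory complex and central pair, and the male germ cell genes had a median of 0.01.

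Motile cilia genes are known targets of RFX factors and of Foxj1, so their promoters were read for the motifs of both. RefSeq promoter windows of GRCm38.p6, each of 300 bases around a gene start, were found for 45 of the 54 genes in 50 windows, the genes with no entry being Cfap157, Cfap299, Cfap53, Cfap65, Cfap73, Cfap97, Rarres2, Rsph1 and Rsph4a. On either strand, the paired RFX motif (GTNNCC and GNAAC, 2 or 3 bases apart) was in 14 of the 50 windows or 28%, against 3.68% of 32851 windows of all genes, and the shorter RFX core GTTGCC in 17 or 34%, against 12.5%. The forkhead core GTAAACA was in 4 windows or 8%, against 3.65%. The core can lie inside the paired motif, and 7 genes held both. These are matches of letters in a window and not sites shown to be bound. Among the 45 genes with an entry, the GnT-IX-deficient arrays lay above the wild-type ones without overlap for 12. Of these 12, 5 held the paired motif, 5 the core GTTGCC and 0 the forkhead core. Of the other 33 genes, 8 held the paired motif, 11 the core GTTGCC and 4 the forkhead core. Whether these shares differ was not tested. The stretches with the paired motif are shown for the 5 of the 12 genes that held it, because these promoters share that feature. Dnah9 is added as a gene with a match whose arrays overlapped, and capitals mark the RFX matches. They lie at chr3:106001489-106001583 on the minus strand (Pifo), chr8:116504949-116504991 on the plus strand (Dynlrb2), chr2:145934761-145934804 on the plus strand (Cfap61), chr4:34730201-34730244 on the minus strand (Cfap206), chr16:90934889-90935052 on the minus strand (Cfap298) and chr11:66168606-66168648 on the minus strand (Dnah9), each printed 5′ to 3′ on the strand of its gene.
Pifo: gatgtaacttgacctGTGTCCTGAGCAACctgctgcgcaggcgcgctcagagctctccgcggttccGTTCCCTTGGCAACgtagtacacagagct
Dynlrb2: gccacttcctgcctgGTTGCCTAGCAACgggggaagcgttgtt
Cfap61: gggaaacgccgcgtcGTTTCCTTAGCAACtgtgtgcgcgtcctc
Cfap206: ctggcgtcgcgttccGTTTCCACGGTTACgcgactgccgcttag
Cfap298: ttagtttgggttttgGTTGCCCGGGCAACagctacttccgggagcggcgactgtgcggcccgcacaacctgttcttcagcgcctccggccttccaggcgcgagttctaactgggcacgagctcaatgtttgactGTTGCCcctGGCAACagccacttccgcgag
Dnah9: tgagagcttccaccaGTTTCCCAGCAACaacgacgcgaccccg
In Dynlrb2 the 2 elements stand 2 bases apart and form a near palindrome, and in Cfap298 a paired match and 2 further cores stand in 1 window. The differences between genotypes were 1.38 for Pifo, 1.27 for Dynlrb2, 0.99 for Cfap61, 0.73 for Cfap298, 0.46 for Cfap206 and 0.29 for Dnah9. The 8 genes with the paired motif whose arrays overlapped, Dnah9 among them, ran from -0.14 (Cfap58) to 0.35 (Cfap45). Those of the 12 genes that lacked the paired motif ran from 0.33 (Cfap300) to 1.28 (Mia). A link between the motif and the differences was not tested.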

How the data were processed

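The deposited values are log2 signals that the authors obtained by RMA in Affymetrix Expression Console 1.4, per the submitters' processing notes. Total RNA came from either of a pair of kits, per the labels' protocols, which do not assign kits to samples, so an effect of the kit was not tested. The 12 columns were matched to samples by title. Of 22206 transcript clusters, 19572 had 1 symbol through the platform annotation and 2634 are unnamed here. Where a gene had several clusters (55 genes), its brightest cluster on average was taken, leaving 19505 genes with no filter on dim ones.

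Differences, standard errors and two-sided p-values came from limma 3.58.1 in R 4.3.3 (lmFit, eBayes), with 1 mean per group over all 12 arrays and Benjamini-Hochberg adjustment over all genes at 0.05. The fit was tested on simulated data. Means are given with SD over 3 arrays. Groups do not overlap where all 3 values of a group lie beyond the 3 of the other. Genes named were the 7 ependymal markers, the 4 members of highest mean signal and the dimmest in each family, up to 5 without overlap in each direction and comparison, genes past the threshold and Mgat5b and Slc1a3 as checks, with others said to be named after their values were seen. The members and lists were chosen with earlier results of these data known. Alternatives covered normalization, dim genes, the variance model, array weights, the arrays fitted, the replicate number as a block, a minimum fold, the members and each array left out in turn. Plots were made in matplotlib 3.10.9.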

Additional observations from a re-analysis of the deposited data

How the results depend on the processing

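No member was called in any comparison under the alternatives, except that leaving out single arrays gave 0 to 1 between genotypes, the 1 being Dynlrb2 without GnT-IX-deficient replicate 1. The median over the members between genotypes ran from 0.34 to 0.37 under the other alternatives, among them adding Dnaic1 and Dnaic2, which was chosen after seeing the data, and from 0.25 to 0.45 when an array was left out. For the 28 members named by rule, 1663 of 1664 values stayed on their side of the threshold. The sign of the difference was less stable in wild-type mice, where it turned in 36 of 416 values at 3 against 0 weeks, 30 at 12 against 0 weeks and 35 at 12 against 3 weeks, all uncalled. Between genotypes it turned in 3 of 416, all of Cfap97d1, and leaving out an array moved 16 of the 28 differences by over 1.5 times. Counts over all genes moved more. For 12 against 0 weeks, array weights gave 919 genes, and for 12 against 3 weeks trend and robust variance gave 30, array weights 33 and the 6 arrays alone 9; the cause was not tested. Leaving out an array gave 192 to 643 genes for 3 against 0 weeks, 77 to 504 for 12 against 0 weeks, 0 to 146 for 12 against 3 weeks and 3 to 49 between genotypes. Same-numbered arrays did not deviate together (correlations from -0.28 to 0.22, beside -0.3 to 0.34 for arrays of different number). Whether same-numbered samples were handled together cannot be told from these values. With the replicate block no member was called, the median between genotypes was 0.34, and all genes gave 543, 442, 15 and 5 calls. With 3 arrays per group, small differences can go uncalled. Another possible limit is the 6 dim members, where the summary method can compress differences. How far either limited the calls was not tested.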
